A study of Drosophila melanogaster with 87 samples.

Results

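The 150 genes described here were those whose m6A enrichment in fly heads fell furthest when the m6A methyltransferase Mettl3 was knocked down. They were chosen from basal heads. For each of 2 antibodies, the log2 ratio of m6A-IP to input, in CPM (read counts scaled to library depth with TMM factors) with 1 added to each, was averaged over RNA pools of control and of Mettl3 RNAi. Of 17562 genes in the table, 7407 had a mean control input of at least 10 CPM and 1869 of them also had a control ratio of at least 0.5 with both antibodies. The score was the smaller of the drops from control to Mettl3 RNAi, and the 150 highest scores form the group, so the basal head ratios below describe the choice and are not a result.

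N6-methyladenosine (m6A) is a methyl mark on adenosines inside mRNA, written by a complex of the catalytic subunit Mettl3 and its partner Mettl14. It is read by YTH-domain proteins, of which Ythdc1 is nuclear and Ythdf is cytoplasmic in flies. The mark is known to bear on splicing, export, translation and decay of mRNA, and in Drosophila it is abundant in the nervous system and has been mapped mostly to 5′UTRs.

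All flies were Drosophila melanogaster males that carried the ubiquitous driver DaGal4 and were reared at 25 °C and collected 1 to 2 days after eclosion; per the methods, flies for HS were aged to 6 days. Control flies expressed an mCherry hairpin (BL35785), Mettl3 RNAi flies a Mettl3 hairpin (BL80448) and Ythdc1 RNAi flies a hairpin to the gene labelled Ythdc (BL34627), so each knockdown rests on 1 line and acted in all tissues that the driver reaches. The control stock, like the Ythdc1 stock, also carries sc and sev marker alleles that the Mettl3 stock lacks. Tissue was taken in basal conditions, directly after 30 min of heat stress (HS) at 38.5 °C in vials of 20 flies, or after 6 h or 24 h of recovery at 25 °C. The 87 libraries held 40 of heads and 47 of dissected brains. In heads, polyA+ RNA from pools of 200 heads was fragmented and split into an m6A-IP and an input library, with the Synaptic Systems antibody (SYS) on 2 pools a group and the New England Biolabs antibody (NEB) on 3. Brains gave RNA-seq of control and Mettl3 RNAi with 6 replicates each in basal and HS, 2 and 3 at 6 h, and 3 each at 24 h. A separate Ythdc1 experiment held 3 control (numbered 7 to 9) and 3 Ythdc1 RNAi replicates in each of basal and HS.

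Depth was 19.4 to 65.9 M counts in brains, 12.2 to 17.7 M in head inputs and 12 to 19.6 M in SYS m6A-IPs. The NEB m6A-IPs held 4.36 to 10.5 M counts in control and 1.32 to 7.98 M in Mettl3 RNAi. Mettl3 itself was at 2.22 to 2.98 CPM in control basal brains and 0.61 to 1.12 CPM in Mettl3 RNAi, and in HS brains at 1.70 to 2.16 against 0.11 to 0.49 CPM. Brain libraries also held photoreceptor transcripts, at 20800 to 82100 CPM summed over 14 markers. The labels of the Mettl3 RNAi basal SYS m6A-IPs give the antibody as none while their titles name SYS, and they were grouped by title. A single brain library stood apart. In control basal replicate 8 of the Ythdc1 experiment, 12 of 144 members with at least 2 CPM in every other replicate (8.33%) lay more than 2-fold below the lowest other replicate, as did 127 of 1658 other eligible genes (7.66%) and 431 of 8437 genes overall (5.11%), a comparison made after the values were seen. Counts of members called in comparisons that use this library are given with and without it, and the values of single genes with it.

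The members were mostly protein-coding, 146 of 150, and their annotated 5′UTRs were long. The median 5′UTR was 635 bases in members, 347 in the other 1719 eligible genes, and 197 among the genes that passed the input minimum. A 5′UTR of at least 500 bases was annotated for 66.4% of members and 35.3% of the other eligible genes. Among 150 eligible genes with the lowest larger drop, called low-drop genes here, the median 5′UTR was 132.5 bases and 5.33% reached 500. Members' 3′UTRs were also longer, with a median of 729 bases against 491.5 in the other eligible genes, whereas their coding sequences were shorter, 1460 against 1995 bases. Of the members, 16 lay on the X chromosome (10.7%, against 23.4% of other eligible genes) and 42 on 3L (28.0% against 19.2%). Of exon bases that no other gene on the same strand shares, the median 5′UTR share was 25.0% in members and 12.6% in other eligible genes. This share was at least 50% in 11 members (7.33%) and in 0.465% of other eligible genes. The ratios cover all counted exons, and the part of this share in them was not tested. These features describe a group chosen by its ratios and were not tested.

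**Figure D1:**
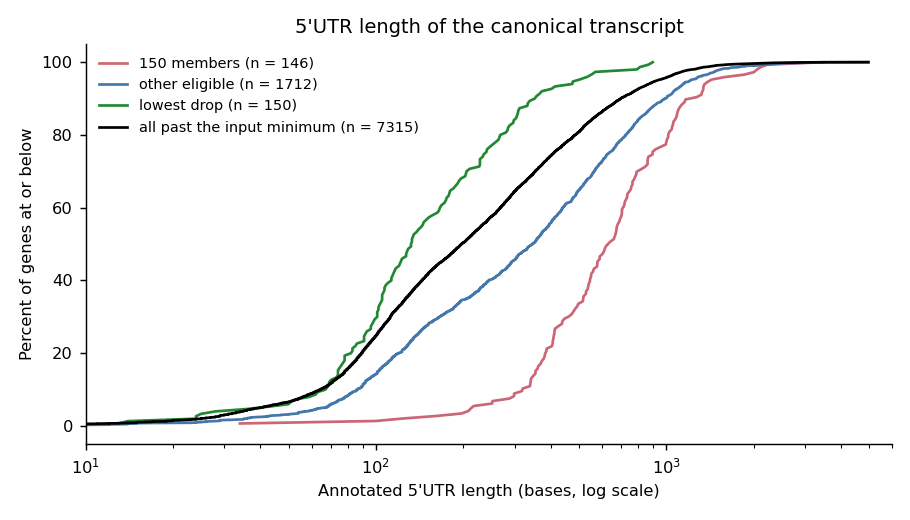
Percent of genes (y axis) with an annotated 5′UTR at or below a length in bases (x axis, log scale), for members, other eligible genes, low-drop genes and all genes past the input minimum. Members have the longest median (635 bases) and low-drop genes the shortest (132.5 bases).

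Fly m6A has been linked to A-rich motifs in place of the vertebrate consensus, and the first 300 transcript bases were searched for AAACA and its variants ending in T (AAACT) or G (AAACG), and for the vertebrate form GGACT, on the transcript strand only. AAACA was present in the window of 101 members (67.3%), 58.7% of other eligible genes, 50.7% of low-drop genes and 52.7% of 7374 genes past the input minimum. In members, other eligible genes and genes past the input minimum the shares were 54.7%, 46.9% and 39.7% for AAACG, 42.0%, 34.9% and 34.4% for AAACT, and 6.67%, 14.3% and 18.2% for GGACT. Per kilobase of 5′UTR, AAACA occurred 5.27, 4.66 and 4.02 times in the same order and GGACT 0.433, 0.400 and 0.451 times, so the lower share of GGACT in the members' window was not seen per base of 5′UTR. Per kilobase of coding sequence, over genes past the input minimum, AAACA occurred 1.05 times and GGACT 1.13 times, so both differed from their 5′UTR rates. The window was shorter than the median 5′UTR of members but longer than that of genes past the input minimum. How much coding sequence it held was not computed, and its part in the window shares of either motif was not tested. Median transcript GC content was 47.6% in members, against 50.8% in other eligible genes. A match of letters is not a methylated site. One AAACA of the 5′UTR is shown, in capitals with 10 bases on each side and 5′ to 3′ on the transcript strand, for 7 of the 12 members with the highest scores, to show the sequence around these letters:
PRL-1: gtcgatagcaAAACAtgagagagtg
CG33947: agagcggccaAAACAaccaaaataa
CG5687: gaaaaaagggAAACAactagtgctc
fz: aaaaaagtctAAACAaaataaagag
sky: cagtacattcAAACActactacgtt
DIP-delta: attctcaataAAACAcaacaaatta
TkR99D: cgtagcgagcAAACAcgcaaaaacg

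In the Drosophila Release 6 (dm6) assembly these windows lie at chr2L:16251748-16251772 on the minus strand for PRL-1, a phosphatase of the regenerating-liver family, and at chr3L:11096514-11096538 on the plus strand for CG33947. The window of CG5687 is chr3L:1938689-1938713 (minus), that of fz, the Wnt receptor Frizzled, chr3L:14274761-14274785 (plus), and that of sky, a regulator of synaptic vesicle traffic known as Skywalker, chr2L:20918905-20918929 (minus). For DIP-delta, an immunoglobulin-domain cell-surface protein, the window is chr3L:5424171-5424195 (plus), and for TkR99D, a tachykinin receptor, chr3R:29969191-29969215 (minus). All 7 are exonic and within annotated 5′UTRs, which held 9 AAACA in PRL-1, 7 in sky, 5 in TkR99D, 4 in CG5687 and in DIP-delta, and 2 in CG33947 and in fz. Kr-h1, a zinc-finger factor of the juvenile hormone response that also ranked among the 12, had no AAACA in its 5′UTR.

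In the basal heads that chose them, members' control ratios ran from 0.50 to 2.67 with SYS (median 1.08) and from 0.63 to 4.65 with NEB (median 2.26). In Mettl3 RNAi the medians were 0.25 and 0.50. Enrichment did not vanish in many members: 44 still had a ratio of at least 0.5 with SYS and 75 with NEB, while 39 were below 0 with SYS. The score ran from 0.66 to 1.90 (median 0.83), and the SYS drop was the smaller one in 149 members, so the ranking follows SYS. At the edge, rols (0.666), Syx1A (0.664) and DIP-zeta (0.663) were just inside, and kek1 (0.660), l(1)G0469 (0.653) and TrissinR (0.653) just outside. Mean control input ran from 11.3 to 417 CPM (median 42.7), and 34 members were below 20 CPM. With an input minimum of 20 CPM, 116 members stayed but only 3 of the 12 highest scores did.

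CG6424 had the highest score, 1.90. Its basal log2 ratios were 2.17 and 2.14 with SYS in control and 0.80 and -0.29 in Mettl3 RNAi, and 3.81, 3.45 and 4.17 with NEB in control against 1.21, 1.83 and 1.80. In PRL-1 the SYS ratios were 2.29 and 2.22 against 0.99 and 0.27, and the NEB ratios 3.87, 3.78 and 4.26 against 1.58, 2.10 and 2.39. Kr-h1 was among the most enriched, at 2.62 and 2.72 against 1.5 and 0.90 with SYS and 4.70, 4.44 and 4.83 against 2.26, 2.86 and 2.63 with NEB. These 3 genes kept ratios above 1 with NEB in every Mettl3 RNAi pool. DIP-delta, in contrast, began low and ended below 0, at 0.50 and 0.66 against -0.44 and -0.67 with SYS and 1.67, 1.61 and 2.33 against -0.93, -0.45 and -1.40 with NEB. CG5687 likewise ended below 0 in every Mettl3 RNAi pool, at -0.50 and -1.17 with SYS and -2.03, -1.75 and -1.41 with NEB, from 0.59 and 0.48 with SYS and 0.98, 0.98 and 1.10 with NEB in control.

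**Figure D2:**
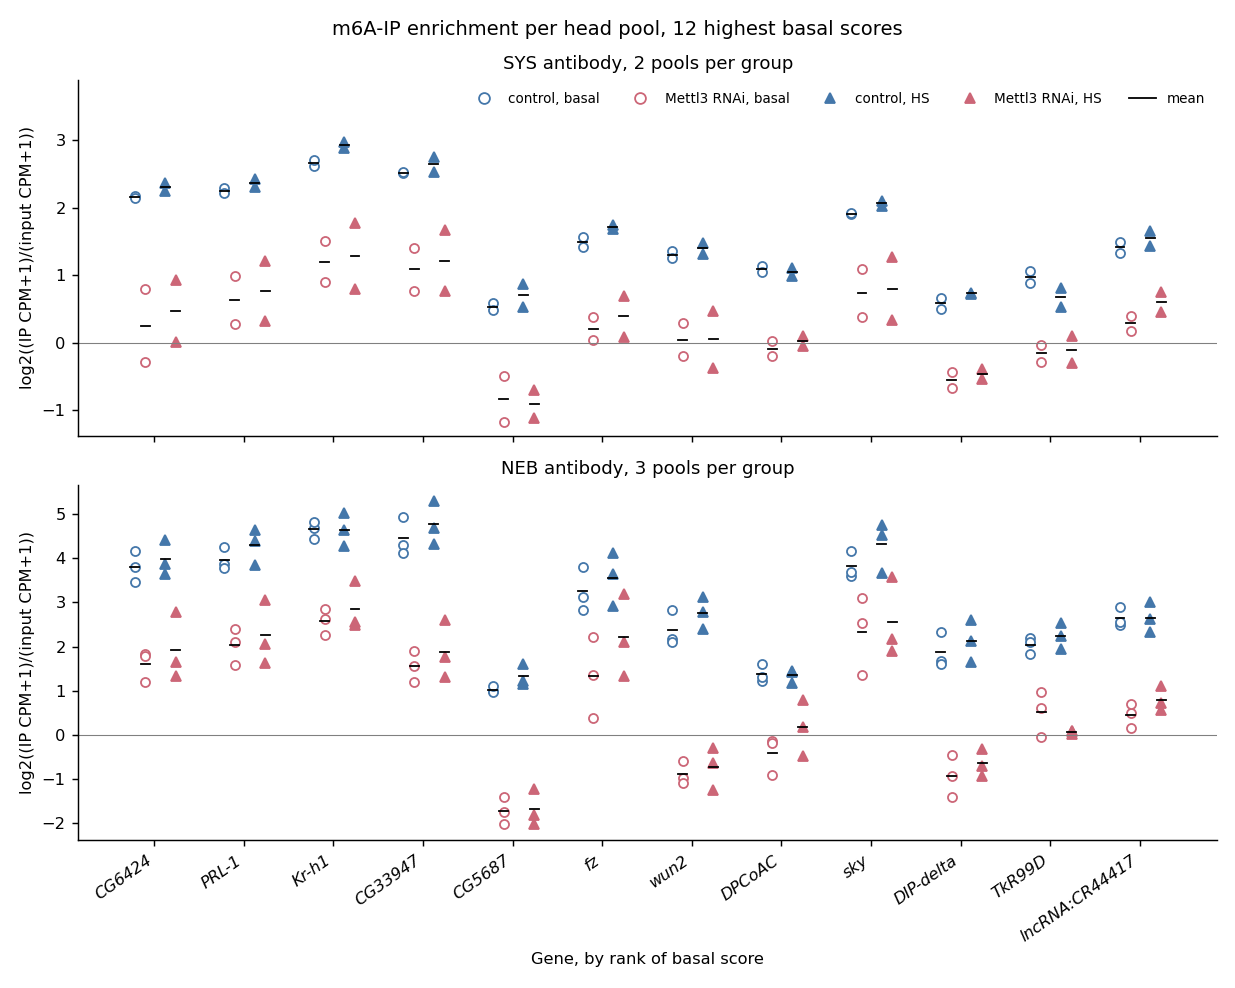
Log2(m6A-IP/input) of the 12 members with the highest scores in each basal and HS head pool, by antibody, for control and Mettl3 RNAi; each point is 1 pool and each bar a group mean. Basal points were used to choose the genes, and HS points were not.

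For several of these genes the countable part of the transcript was small. The authors discarded reads that overlapped exons of more than 1 gene, and in the annotation used here under 50% of exon bases, taken over all annotated transcripts of the gene, were free of another gene on the same strand in 8 members (5.33%, against 0.233% of other eligible genes). CG6424 kept 7.67% of its exon bases, Kr-h1 21.5%, sky 24.5%, PRL-1 26.9%, sif 28.1%, DPCoAC 41.4% and CG5151 42.6%. For CG6424, Kr-h1 and PRL-1 these bases were all 5′UTR. CG5687 kept none, but its partner is not a row of the counted table and may not have been in the authors' annotation. Ratios and CPM of these genes therefore describe part of the transcript, and the use of strand in counting is not stated.

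HS heads tested the same contrast in RNA that the choice had not used. With SYS, 148 of 150 members had a lower IP-to-input ratio in Mettl3 RNAi after HS and none a higher one, by the quasi-likelihood test of edgeR, with p-values adjusted over 10304 genes after Benjamini and Hochberg and a threshold of 0.05. Over all genes tested, 12.2% were called, 10.5% lower and 1.72% higher, and among the other eligible genes 491 of 1719 (28.6%) were. The members' log2 changes ran from -1.89 to -0.35, with a median of -0.97 against 0.04 over all genes and -0.10 in the other eligible genes. In 149 members every Mettl3 RNAi pool lay below every control pool, as it did for 25.6% of all genes. The median ratio went from 1.24 in control to 0.31 in Mettl3 RNAi, and 52 members still reached 0.5. The members not called were lncRNA:CR43650 (log2 change -0.62, adjusted p = 0.113) and sqz, a zinc-finger factor of neuronal identity (-0.35, adjusted p = 0.156). Without the block that pairs each m6A-IP with its input, 0 members and 0 of all genes passed.

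With NEB, 147 of 150 members were lower after HS and none higher, against 14.0% of 9935 genes called, 13.0% lower and 0.916% higher, and 473 of the 1719 other eligible genes. Their log2 changes ran from -3.58 to -0.46, with a median of -1.65 against 0.08 over all genes. Pools did not overlap in 138 members, against 17.9% of all genes. The median ratio was 2.39 in control and 0.76 in Mettl3 RNAi, where 93 members still reached 0.5. Not called were mnb, a DYRK-family kinase (-0.76, adjusted p = 0.205), sfl, a heparan sulfate sulfotransferase (-1.18, adjusted p = 0.0668), and Unr, a cold-shock-domain RNA-binding protein (-0.46, adjusted p = 0.414). NEB m6A-IPs of Mettl3 RNAi were the shallower libraries, as given above, and the part of depth in these changes was not tested.

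**Figure D3:**
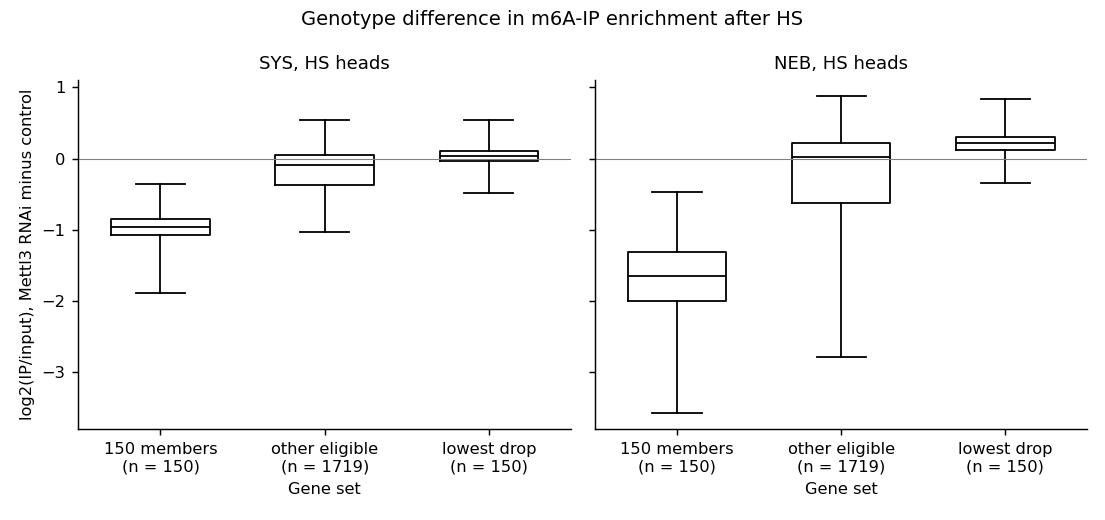
Change of log2(m6A-IP/input) from control to Mettl3 RNAi in HS heads, for members, other eligible genes (n = 1719) and low-drop genes with each antibody; boxes show quartiles and median, and whiskers the lowest and highest gene. Members lie below 0 throughout, with medians of -0.97 with SYS and -1.65 with NEB.

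Pool values show the size of these drops. CG6424 had HS ratios of 2.25 and 2.37 with SYS in control against 0.92 and 0.01, and 3.65, 4.41 and 3.87 with NEB against 1.65, 1.34 and 2.78. Control and Mettl3 RNAi pools did not overlap, and the log2 change was -1.89 ± 0.21 (SE, adjusted p = 1.87e-05) with SYS and -2.09 ± 0.30 (adjusted p = 0.00026) with NEB. CG33947 went from 2.53 and 2.76 to 1.67 and 0.76 with SYS, and from 4.31, 5.30 and 4.68 to 1.76, 1.30 and 2.60 with NEB (-2.91 ± 0.29, adjusted p = 2.39e-05), again without overlap. DIP-delta was at 0.74 and 0.72 against -0.39 and -0.54 with SYS and at 1.65, 2.60 and 2.13 against -0.70, -0.92 and -0.31 with NEB. All its Mettl3 RNAi pools were below 0, so its RNA was then less abundant in the m6A-IP than in the input (SYS -1.27 ± 0.15, adjusted p = 2.31e-05; NEB -2.93 ± 0.27, adjusted p = 1.72e-05).

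For fz the antibodies gave different pictures. SYS ratios were 1.74 and 1.69 against 0.70 and 0.09, without overlap (-1.34 ± 0.15, adjusted p = 2.13e-05). With NEB they were 2.92, 4.12 and 3.65 against 1.33, 2.11 and 3.18, so the highest Mettl3 RNAi pool lay above the lowest control pool, and the change was -1.42 ± 0.39 (adjusted p = 0.0255). Teh1, which encodes an auxiliary subunit of the voltage-gated sodium channel and lies at chr3R:9826081-9868120 on the minus strand, was at 1.30 and 1.33 against 0.80 and 0.23 with SYS. With NEB it was at 2.54, 3.17 and 2.60 against 0.36, 0.56 and 0.73 (-2.27 ± 0.19, adjusted p = 1.18e-05), and neither antibody gave overlap. The noncoding RNA lncRNA:CR44417 was at 1.44 and 1.66 against 0.76 and 0.45 with SYS and at 2.61, 3.0 and 2.33 against 0.73, 0.56 and 1.10 with NEB.

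Members were looked up in lists of pathways and protein classes, beside the share of members among all eligible genes, 150 of 1869 (8.03%). Of 135 adhesion, guidance and recognition genes 70 were eligible and 17 were members, among them 7 dpr genes (dpr1, dpr2, dpr4, dpr5, dpr13, dpr16 and dpr20) and DIP-delta and DIP-zeta, whose products are binding partners at the surface of neurons. The same list gave side, 3 beat-family genes (beat-IIb, beat-IIIb and beat-IIIc), robo2, a Slit receptor, kirre, Nlg4 and babos. Of 104 ion channels and receptors 35 were eligible and 10 were members: the sodium channel subunits tipE and Teh1, the glutamate receptor subunits GluRIA and GluRIB, the octopamine and tyramine receptors Oamb, Octbeta3R, TyrR and Oct-TyrR, and the peptide receptors TkR99D and Dh44-R1. Egfr and MAPK signalling gave 5 of 27 eligible genes, the adaptor drk, the ubiquitin ligase sina, the phosphatases puc and Mkp3 and the ETS repressor aop. Wnt signalling gave 3 of 15 (fz, Rac2 and the ligand Wnt4) and transcription factors 5 of 88 (Kr-h1, kni, Met, aop and sqz). The Hippo and Fat list gave 1 of 18 (fj), the insulin list 1 of 7 (Ilp6) and the RNA-binding list 1 of 31 (Unr). No member came from the m6A writer (3 eligible), m6A reader (2), Notch (10), TGF-beta (10), Hedgehog (3) or chaperone (13) lists. None came from the markers of neurons (3 eligible), glia (3), photoreceptors (3), fat body (1) or muscle (6). With so few eligible genes, 0 members in a list was not shown to differ from the overall share of 8.03%. The lists are not complete. The homeobox genes Drgx, mirr and Optix, the ETS gene Ets65A, the channel gene Best1 and the peptide receptor CNMaR are members that stand on none of them. A share is therefore that of the list and not of the class of genes it is named for.

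Whether the RNA level of the members changed with Mettl3 was asked next. In these bulk samples, fewer cells of a type and less RNA per cell cannot be told apart. In the 10 HS head inputs, 9 members were higher and 3 lower in Mettl3 RNAi, 12 of 150 against 2.72% of 10499 genes (1.91% higher and 0.810% lower). Of the other eligible genes 4.01% were called (3.32% higher and 0.698% lower). The median log2 change was 0.08 in members and -0.01 over all genes. Higher were Teh1 (0.93), CG13300 (0.53), Unr (0.45), dpr16 (0.43), DIP-delta (0.42), dpr2 (0.36), fz (0.34), CG6836 (0.33) and mspo (0.30), and lower were lncRNA:CR44417 (-0.91), Drip, a water channel (-0.37), and the metalloprotease gene Invadolysin (-0.19).

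Teh1 input was 48.8 and 61.5 CPM in control against 79.6 and 90.8 in Mettl3 RNAi in the SYS experiment, and 26.8, 26.8 and 29.7 against 56.4, 58.9 and 65.3 in the NEB experiment. Genotypes did not overlap within either experiment, although levels differed between the experiments, and the change was 0.93 ± 0.10 (adjusted p = 0.000843). lncRNA:CR44417 was at 12.1 and 14.6 against 8.02 and 7.35 CPM, and at 10.4, 11.7 and 11.1 against 5.23, 5.36 and 5.95, again without overlap (-0.91 ± 0.08, adjusted p = 0.000394). The count depended on the fit. The all-gene share is not given beside the counts of the other fits, which are not read as a trait of the members. Pools with the same number deviated together, and with the number as a block 23 members were higher and 6 lower. Without SYS control replicate 1 the total was 19, and without NEB control replicate 1, 2 or 3 it was 7, 5 or 5, and without NEB Mettl3 RNAi replicate 2 or 3 it was 6 or 5. In the NEB inputs the sum of 10 fat body markers was 8390 to 9410 CPM in Mettl3 RNAi and 7200 to 7590 in control, and its part in these changes was not tested.

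In basal brains 10 members rose and 6 fell in Mettl3 RNAi, against 2.19% of 10042 genes called (1.58% higher and 0.607% lower). Of the other eligible genes 4.33% were called (3.45% higher and 0.878% lower). The median log2 change was 0.09 in members and -0.01 over all genes. The largest rises were CG31121 (1.37), CG6424 (0.64), CG3376 (0.51), pyr, an FGF ligand (0.50), and Teh1 (0.42), with CG42514, dpr16, corn, mnb and dpr2 between 0.23 and 0.31. Falls were lncRNA:CR44417 (-1.01), Wnt4 (-0.29), dpr13 (-0.27), dpr1 (-0.26), beat-IIb (-0.26) and Invadolysin (-0.23). Genes of the dpr family thus went both ways, dpr2 and dpr16 up and dpr1 and dpr13 down.

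Among 6 replicates each, lncRNA:CR44417 was at 8.23, 9.68 and 12.4 CPM (lowest, median, highest) in control and 4.12, 4.78 and 6.24 in Mettl3 RNAi, so the groups did not overlap (-1.01 ± 0.13, adjusted p = 0.00189). For pyr the values were 16.1, 18.4 and 20.9 against 23.1, 26.3 and 28.2 CPM (0.50 ± 0.07, adjusted p = 0.00335), also apart. Only these calls, of 10 named for this comparison, held whichever replicate was left out. CG31121 was at 2.63, 3.33 and 5.13 CPM against 5.36, 6.56 and 16.6, and its Mettl3 RNAi replicate 1 alone was at 16.6. Leaving out replicate 1, 3, 5 or 6 gave 6, 5, 5 or 4 members called, and leaving out 2 or 4 gave 11 or 7. Replicates 1 to 3 alone gave 0 and replicates 4 to 6 alone 8. Muscle markers summed to 2000 CPM in Mettl3 RNAi replicate 1, against a group median of 218.

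After HS, 16 members were higher and 15 lower in Mettl3 RNAi, against 6.32% of 10054 genes called (3.60% higher and 2.72% lower). Of the other eligible genes 9.62% were called (5.45% higher and 4.16% lower). The median log2 change was 0.00 in members and 0.00 over all genes. The rises were led by CG6836 (0.76), CG31121 (0.75), Teh1 (0.64), pyr, DIP-delta and CG42514 (0.51 each) and CG3376 (0.43), and also took in drk and T48, an adaptor for apical constriction. Of these, CG6836, CG31121 and CG3376 did not meet the rule of replicates without overlap and a mean count of at least 100 in a group. The falls were led by lncRNA:CR44417 (-1.05), MESR3 (-0.36), CG30419 (-0.33), the syntaxin gene Syx1A (-0.30), Invadolysin (-0.26), tipE (-0.24) and beat-IIb (-0.23), and included side, robo2 and beat-IIIb. Among these falls, MESR3 and Invadolysin did not meet the rule on overlap and count either. The sodium channel subunits went opposite ways, Teh1 up and tipE down. Scaling by library size alone gave 18 higher and 4 lower (620 and 117 over all genes), so the split rests on the scaling. Replicates 1 to 3 alone gave 30 members, replicates 4 to 6 alone 12, and the total without 1 replicate number was 15 to 24, with 20, 17, 16, 15 and 20 without replicate 1, 2, 3, 5 or 6.

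Teh1 was at 102, 111 and 121 CPM in control HS brains and 163, 175 and 188 in Mettl3 RNAi, every Mettl3 RNAi replicate above every control (0.64 ± 0.05, adjusted p = 9.35e-06). DIP-delta was at 57.6, 62.3 and 66.8 against 83.4, 88.0 and 96.5 CPM, without overlap (0.51 ± 0.05, adjusted p = 5.44e-05). In basal brains it did not pass the test (0.37, adjusted p = 0.0808). CG42514 was at 20.1, 21.8 and 24.5 against 29.5, 30.9 and 34.3 CPM (0.51 ± 0.06, adjusted p = 0.000172), and Syx1A at 586, 610 and 664 against 479, 495 and 564 CPM (-0.30 ± 0.05, adjusted p = 0.0031). Both were apart in every replicate. lncRNA:CR44417 was at 7.74, 9.32 and 9.56 against 3.93, 4.18 and 5.31 CPM. Of 10 named genes, 9 kept their call in every fit with a replicate left out; the exception was dpr2, with an adjusted p of up to 0.0546.

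**Figure D4:**
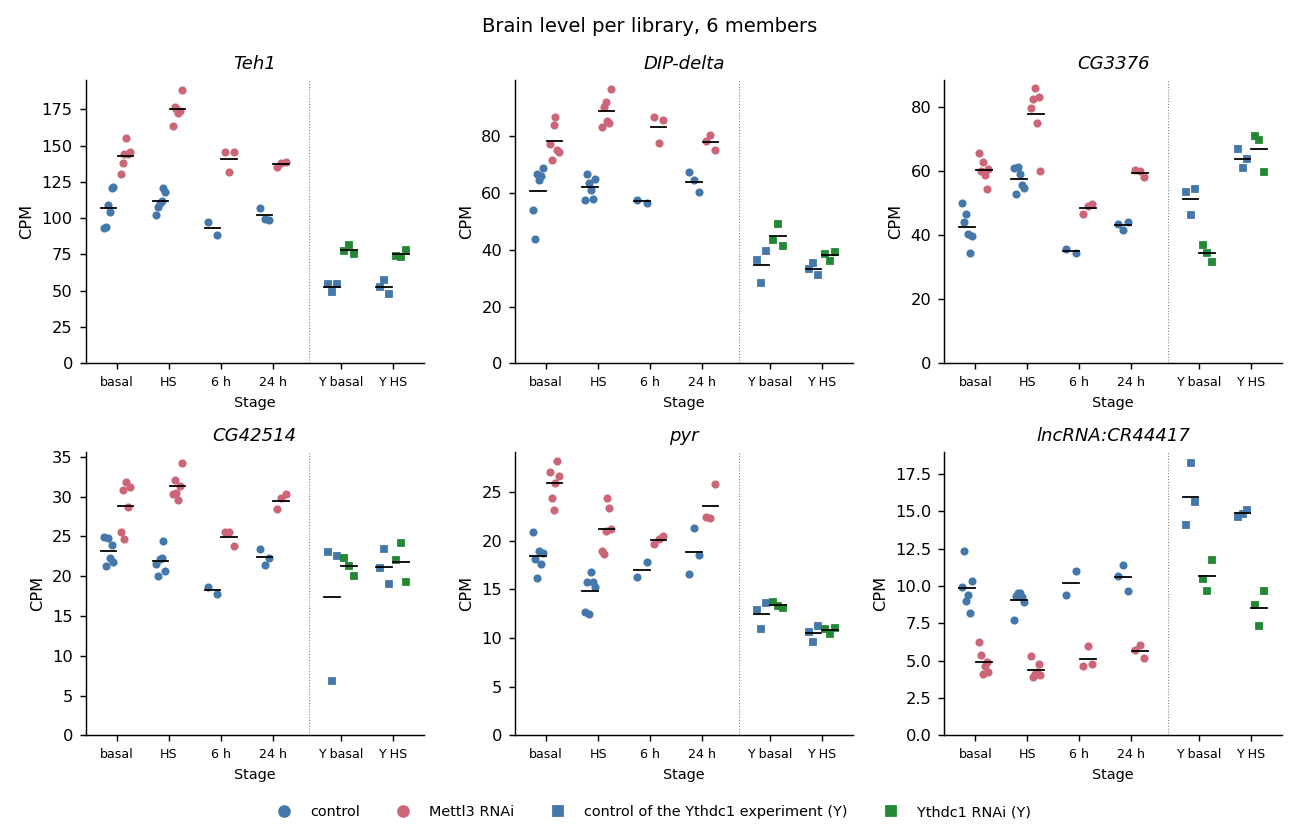
Brain levels (CPM) of 6 members in control and Mettl3 RNAi at basal, HS, 6 h and 24 h and, right of the dotted line, in control and Ythdc1 RNAi of the Ythdc1 experiment (Y). Each point is 1 library and each bar the group mean. Teh1 is higher and lncRNA:CR44417 lower in Mettl3 RNAi at each of the 4 stages, without overlap.

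During recovery fewer replicates were available. At 6 h, 7 members were higher and 1 lower, against 3.0% of 10281 genes called (1.39% higher and 1.60% lower), and without control replicate 1 or 2 the total was 2 or 0, with the lone control assumed to vary like Mettl3 RNAi. Without Mettl3 RNAi replicate 1, 2 or 3 it was 4, 4 or 2, and none of the 6 named calls held throughout. DIP-delta (0.55), CG42514 (0.45), CG3376 (0.46), meng (0.38) and Teh1 (0.60) were higher. Teh1 was at 97.7 and 88.4 CPM in control against 145, 132 and 146, and lncRNA:CR44417 at 9.38 and 11 against 4.67, 5.96 and 4.78 CPM (-0.99 ± 0.15, adjusted p = 0.0246). Neither overlapped. Of the other eligible genes 3.63% were called at 6 h (2.63% higher and 0.995% lower) and 14.8% at 24 h (7.77% and 7.06%). At 24 h, 19 members were higher and 10 lower, against 9.19% of 9756 genes called (5.33% higher and 3.86% lower). Leaving out Mettl3 RNAi replicate 1 or 2 gave 11 or 14, leaving out control replicate 1 gave 19, and the other 3 replicates gave 20 to 23.

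At 24 h Teh1 was at 107, 99.8 and 99.1 CPM in control and 135, 138 and 139 in Mettl3 RNAi (0.44 ± 0.04, adjusted p = 0.000531). CG3376 was at 43.6, 41.6 and 44.2 CPM against 60.4, 59.9 and 58.2 (0.47 ± 0.04, adjusted p = 0.000731). CG31121 rose by 0.90 and CG42514 by 0.41, while Syx1A (-0.23), side (-0.21), dpr13 (-0.21) and lncRNA:CR44417 (-0.90) fell. All 8 genes kept these calls with any replicate left out, whereas CG5687 (-0.24) and babos (0.35) lost theirs. fj, a Golgi kinase that acts on the cadherins Fat and Dachsous, had the largest rise (1.44), from 0.5 to 0.7 CPM up to 1.1 to 1.9 CPM.

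Across the 4 brain stages, 48 members were called in at least 1. The share over all genes was not computed for this count, so it is not read as a trait of the members. Teh1, CG3376, CG42514 and corn were higher in all 4 and lncRNA:CR44417 lower in all 4, 3.33% of members against 0.604% of 9596 genes tested at every stage. Each stage has its own control libraries. In both basal and HS brains 9 members were higher and 3 lower, 8.0% against 1.44% of genes. In both HS brains and HS head inputs 7 were higher (CG13300, CG6836, DIP-delta, Teh1, dpr16, dpr2 and mspo) and 2 lower (Invadolysin and lncRNA:CR44417), 6.0% against 1.22%. Of the 17 adhesion and guidance members, 2 were higher and 3 lower in basal brains, 3 and 4 after HS, 1 and 0 at 6 h, and 4 and 4 at 24 h. Over the whole list, 12 were higher and 6 lower of 130 genes tested in basal, 13 and 21 of 129 after HS, 7 and 0 of 130 at 6 h, and 21 and 19 of 129 at 24 h. Of the 10 channel and receptor members, Teh1 alone was higher at each stage, and only tipE was lower, after HS. Of all 101 channel and receptor genes tested, 7 were higher and 1 lower in basal, 8 and 6 after HS, 6 and 0 at 6 h, and 13 and 15 at 24 h.

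The members' own response to HS was then examined. In control brains 51 members rose and 15 fell from basal to HS, 66 of 150 against 48.9% of 10049 genes. In Mettl3 RNAi brains 40 rose and 19 fell, against 46.5% of 10118 genes. These tests did not pair basal and HS replicates of the same number. Residuals of such replicates correlated at 0.34 to 0.76 in control and 0.17 to 0.68 in Mettl3 RNAi. Over all genes 19.7% rose and 29.2% fell in control, and 18.3% and 28.2% in Mettl3 RNAi. Of the other eligible genes 29.4% rose and 29.0% fell in control, and 24.6% and 29.6% in Mettl3 RNAi. The direction rested on the scaling. By library size alone the median of all genes shifted to -0.41 in control and -0.39 in Mettl3 RNAi, and 4 members rose and 90 fell in control, and 3 and 89 in Mettl3 RNAi; size factors by relative log expression gave 50 and 12 in Mettl3 RNAi. Changes below are therefore relative to the median gene. Summed neuron markers were at 13700 to 15000 CPM in control HS against 7800 to 12900 in control basal, where only replicate 2 was below 10584, and at 12400 to 14300 against 11000 to 12300 in Mettl3 RNAi. Glia markers were at 6050 to 7390 CPM (median 7120) in control HS against 5070 to 6060 (5730) in control basal, and photoreceptor markers at 43100 to 82100 (52200) against 29700 to 47700 (41000). In Mettl3 RNAi the medians were 6280 against 5240 for glia and 47900 against 40800 for photoreceptors. The part of these markers in the changes was not tested.

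The largest rise among named members was that of lncRNA:CR46006, from 15.2, 19.2 and 25.1 CPM (lowest, median, highest) to 45.3, 53.7 and 65.5 in control and from 13.7, 17.9 and 21.5 to 36.4, 44.2 and 50.9 in Mettl3 RNAi. Basal and HS replicates did not overlap in either genotype, and the changes were 1.51 ± 0.13 (adjusted p = 1.49e-06) and 1.34 ± 0.11 (adjusted p = 2.1e-06). CG6424 rose from 2.41, 3.17 and 4.03 to 5.11, 6.07 and 8.13 CPM in control (1.01 ± 0.15, adjusted p = 0.000152). Rises in control also included the kinase gene cdi (0.58), trbl, the Tribbles pseudokinase (0.60), and sif, a Rac exchange factor (0.60). In sif, control basal replicate 2 stood at 122 CPM against 286 to 355 in the others, and without replicate 1 its adjusted p was 0.0536. In Mettl3 RNAi, CG2993 (0.58), sky (0.53), Unr (0.51) and beat-IIIc (0.49) rose. Scaling by library size removed the calls of cdi, trbl and sif in control and of sky, Unr and beat-IIIc in Mettl3 RNAi.

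Falls were smaller in number. CG31855 went from 13.5, 14.8 and 16.1 to 8.91, 10.1 and 11.1 CPM in control (-0.53 ± 0.07, adjusted p = 4.96e-05) and fell by 0.59 in Mettl3 RNAi. lncRNA:CR43650 fell in control from 7.17, 12.9 and 18.3 to 4.13, 5.03 and 6.02 CPM (-1.32 ± 0.21, adjusted p = 0.000175). puc, the phosphatase that restrains JNK signalling, went in Mettl3 RNAi from 39.5, 52.6 and 59.0 to 24.1, 32.8 and 38.9 CPM (-0.64 ± 0.14, adjusted p = 0.00273). None of these overlapped between basal and HS. dpr5 (-0.42 and -0.33 in control and Mettl3 RNAi), CG34348 (-0.35 and -0.36) and the homeobox gene Drgx (-0.36 in control) also fell. Of the channel and receptor members 4 rose in control and 5 in Mettl3 RNAi and none fell, whereas over the whole list of 101 genes 48 rose and 3 fell in control and 52 and 8 in Mettl3 RNAi. Of the adhesion members 5 rose and 4 fell in control and 6 and 5 in Mettl3 RNAi, beside 44 and 17, and 49 and 23, of the 129 list genes tested.

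**Figure D5:**
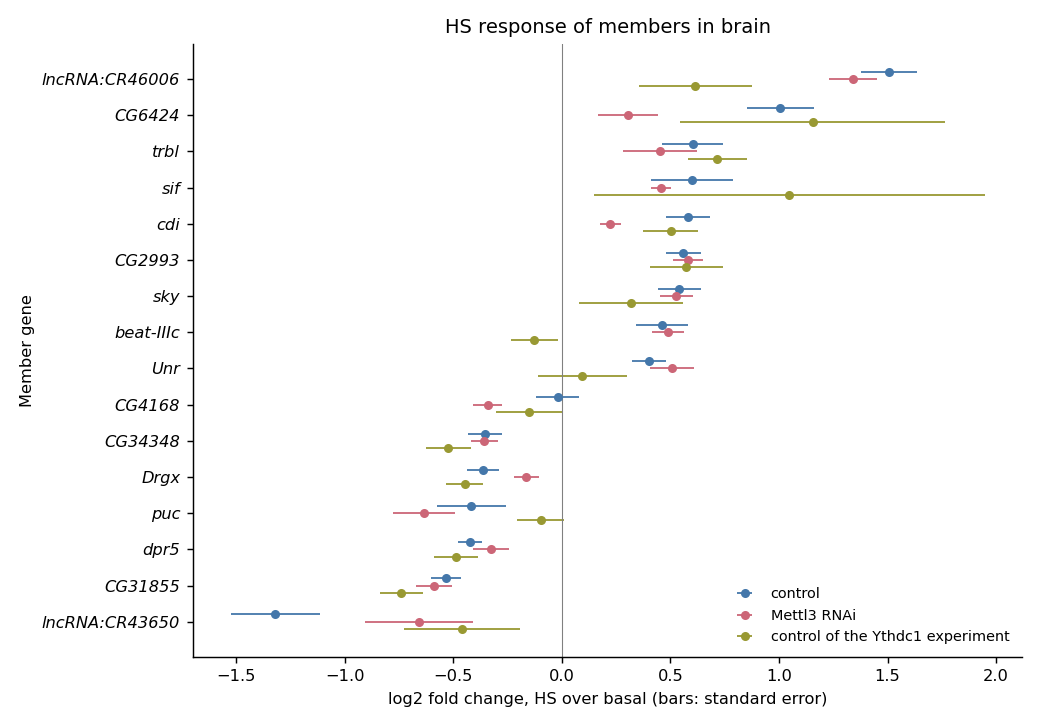
Log2 fold change of HS over basal in brains (points; bars are standard errors) for the named members of the HS comparisons, in control, Mettl3 RNAi and the control of the Ythdc1 experiment. lncRNA:CR46006 lies highest in control (1.51) and Mettl3 RNAi (1.34), and the wide bar of sif in the Ythdc1 control goes with its low basal replicate 8.

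The genotypes were not shown to differ in this response. The test of genotype by HS called 0 of 150 members and 0% of 10503 genes with edgeR, with 10 members and 627 genes at an unadjusted p under 0.05. DESeq2 called 0 members and 10 genes, and with the replicate number as a block edgeR also called 0 members and 0 genes. Called in both genotypes were 35 members up and 12 down, 31.3% against 38.4% of genes. In the controls of the Ythdc1 experiment 19.6% of the other eligible genes were called. There 9 members rose and 10 fell, against 18.7% of 10370 genes (5.22% higher and 13.5% lower). Without basal replicate 8, the library that stood apart, 55 were called. Without basal replicate 7 or 9 it was 10 or 9, and without HS replicate 7, 8 or 9 it was 5, 3 or 3. The all-gene share is not given for these fits, so their counts are not read as a trait of the members. Library size scaling gave 1 higher and 44 lower, at an all-gene median of -0.33, and relative log expression 13 and 9. CG1146, Pli, cdi, elB and trbl rose and CG31855, CG34348, Drgx, dpr13 and dpr5 fell in all 3 HS comparisons, 6.67% of members against 15.1% of genes. With basal replicate 8 left out of the Ythdc1 controls, 19 members rose and 9 fell in all 3, and the share over all genes was not computed for that fit.

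In the recovery of control brains, few members stood away from basal replicates 1 to 3. At 6 h, CG31324 was higher (0.57) and lncRNA:CR43650 (-1.11), CG1673 (-0.56), CG13707 (-0.40), CG3376 (-0.39) and Drgx (-0.36) were lower, 6 of 150 against 6.81% of 10159 genes (3.86% higher and 2.95% lower). CG31324 was at 80.3 and 81.9 CPM at 6 h against 52.3, 52.4 and 63.1 in basal, without overlap. Without basal replicate 1, 2 or 3 the total was 1, 8 or 4, without 6 h replicate 1 or 2 it was 1 or 0, and against all 6 basal replicates it was 0. At 24 h edgeR called 0 members, against 0.235% of 9778 genes (0.0409% higher and 0.194% lower), and DESeq2 called 1. By edgeR, an unadjusted p under 0.05 was found for 21 of 150 members and for 1512 of 9778 genes. Of the other eligible genes 3.16% were called at 6 h and 0.235% at 24 h.

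Knockdown of the nuclear reader was compared last. The level of Ythdc1 in Ythdc1 RNAi brains is not given here. In Ythdc1 RNAi brains 1.98% of the other eligible genes were called in basal and 6.55% after HS. In basal, 4 members were higher and 6 lower than in control, 10 of 150 against 3.89% of 10341 genes (0.774% higher and 3.11% lower). After HS 7 members were higher and 9 lower, against 5.30% of 10245 genes (2.45% higher and 2.85% lower). Basal rises were CG31324 (0.71), CNMaR, a neuropeptide receptor (0.68), Dh44-R1 (0.63) and Teh1 (0.55), and falls were babos (-0.64), CG3376 (-0.59), Rcd2 (-0.56), T48 (-0.52), the ERK phosphatase gene Mkp3 (-0.47) and MESR3 (-0.43). After HS the largest rises were CG1673 (0.71), CG31121 (0.60), Teh1 (0.50), tun (0.44) and drk (0.30), and the largest falls lncRNA:CR44417 (-0.81), rols (-0.52), Invadolysin (-0.45), MESR3 (-0.39) and T48 (-0.38). Single libraries moved these counts. In basal, 34 members were called without control replicate 8 (18 higher and 16 lower, beside 619 and 959 of 10511 genes), 3 without control replicate 7, 2 without Ythdc1 RNAi replicate 1 and 0 without any other. After HS the totals were 10, 5 and 13 without control replicate 7, 8 or 9 and 5, 5 and 7 without Ythdc1 RNAi replicate 1, 2 or 3. Library size scaling gave 5 higher and 1 lower in basal, and 4 and 9 after HS.

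Teh1 was at 54.4, 49.4 and 54.7 CPM in basal control and 77.4, 81.4 and 75 in Ythdc1 RNAi, and after HS at 52.8, 57.3 and 48.0 against 74.0, 73.3 and 78.0 CPM. Neither condition overlapped, with changes of 0.55 ± 0.08 (adjusted p = 0.0229) and 0.50 ± 0.06 (adjusted p = 0.0112), and the HS call held with any replicate left out. lncRNA:CR44417 was at 14.6, 14.9 and 15.1 CPM in control HS against 8.72, 7.33 and 9.64 (-0.81 ± 0.10, adjusted p = 0.0106), also held throughout. In basal it was at 14.1, 18.3 and 15.6 against 10.5, 9.70 and 11.8 CPM and did not pass (-0.60, adjusted p = 0.0683). CG3376 went the other way from Mettl3 RNAi, at 53.4, 46.4 and 54.4 CPM in basal control against 37.0, 34.4 and 31.5 in Ythdc1 RNAi (-0.59 ± 0.09, adjusted p = 0.0287), whereas it was higher by 0.51 in basal Mettl3 RNAi brains.

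In HS brains, CG31121, drk and Teh1 were higher and Invadolysin, MESR3, lncRNA:CR44417, sfl and side lower in both knockdowns, which have separate controls. These were 5.33% of members against 0.853% of 9847 genes. On the log2 scale T48 rose by 0.24 in Mettl3 RNAi and fell by 0.38 in Ythdc1 RNAi. In basal brains Teh1 was the one member called in the same direction in both. Without Ythdc1 control replicate 8 there were 4, Teh1 and corn higher and Invadolysin and lncRNA:CR44417 lower. Ythdc1 itself was at a log2 change of -0.68 in basal and -0.84 in HS Mettl3 RNAi brains.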

How the data were processed

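The authors trimmed reads with TrimGalore, aligned them to dm6 with STAR 2.7.3a, dropped reads that were unmapped or not properly paired, and counted the rest over FlyBase exons in union mode. They deposited raw counts per gene in 1 table of 87 libraries, with no normalization, and tested them with DESeq2. Only these counts were used, so a ratio covers the counted exons of a gene.

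CPM were computed with TMM factors. Tests used edgeR 4.0.16 in R 4.3.3 (filterByExpr with minimum count 10 and total 15, glmQLFit, glmQLFTest) with Benjamini-Hochberg adjustment over all genes tested, and a threshold of 0.05. Standard errors were derived from the F statistic. The RNA pool was a block in m6A-IP tests, and the antibody experiment a term for HS inputs. Residuals of same-numbered HS inputs correlated at 0.82 with SYS and 0.24 to 0.38 with NEB, and those of basal and HS brains at 0.34 to 0.76 in control and 0.17 to 0.68 in Mettl3 RNAi. Recovery was compared with basal replicates 1 to 3. Alternatives were DESeq2 1.42.0, other scalings and filters, blocks, replicate subsets, and each library left out. Sequence features came from a dm6 annotation of a later release than the authors', to which all 150 symbols were matched (Python 3.11.15, pandas 2.3.3).

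The members, lists and tests were chosen with earlier results of these data known. The genes named were the 12 highest scores, the 3 lowest with the next 3 eligible genes, members of the fixed lists, the RNAi targets, and, per brain comparison, the 5 members called that rose most and the 5 that fell most, where replicates of the groups did not overlap and a group's mean count reached 100. Other members were named after their values were seen. The labels call the head replicates biological, and the study lists every brain replicate as biological, each a pool of brains.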

Additional observations from a re-analysis of the deposited data

Results flagged for a closer look

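Of 79 groups of 6 brain replicates examined for the named members, 4 held a replicate far from the other 5, and chance flags about 1 in 20 such groups. sif was at 122.13 CPM in control basal replicate 2, where the other replicates were at 285.63 to 355.23 CPM. In the control HS group, lncRNA:CR44417 was at 7.74 CPM in replicate 1 (others 8.95 to 9.56), CG34348 at 6.92 CPM in replicate 3 (others 8.64 to 9.46) and tipE at 119.32 CPM in replicate 6 (others 107.71 to 111.51). No explanation was tested.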

How the results depend on the processing

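The 91 values of named members kept their direction in all 1096 alternatives run on them, and 855 stayed past the threshold while 241 did not. The list itself shared 94 members with one made from NEB alone, and 131 to 149 when a pool was left out. Scaled by library size alone in place of TMM, 1120 genes were eligible and 116 members stayed. Among counts of members called, the HS SYS test without the pool block gave 0, and leaving out 1 library gave 144 to 148 with SYS and 129 to 149 with NEB. HS head inputs gave 21 with DESeq2, 29 with the replicate block, 27 with NEB alone, 0 with SYS alone and 5 to 19 with 1 library left out. Mettl3 RNAi basal gave 6 with the replicate block, 0 with replicates 1 to 3, 8 with replicates 4 to 6 and 4 to 11 with 1 number left out. After HS it gave 12 with replicates 4 to 6 and 15 to 24 with 1 left out. At 6 h it gave 22 with DESeq2, 1 with the replicate block and 0 to 4 with 1 left out, and at 24 h 11 to 23. The HS response gave 41 in control with replicates 4 to 6 and 52 to 63 with 1 left out, and in Mettl3 RNAi 92 by library size and 49 to 55. In the Ythdc1 controls it gave 34 with DESeq2, 45 by library size, 5 with the replicate block and 3 to 55 with 1 left out. Control recovery at 6 h gave 11 with no filter, 0 against all 6 basal replicates and 0 to 8 with 1 left out, and at 24 h 1 with DESeq2. Ythdc1 RNAi basal gave 23 with DESeq2, 6 by library size and 0 to 34 with 1 left out, and HS 5 to 13. All-gene shares are not given beside these counts, which show how far they move and are not read as a trait of the members. The causes were not tested. No paired analysis was possible for Ythdc1 RNAi against control because their replicate numbers do not overlap. Same-numbered replicates of control and Mettl3 RNAi brains were not shown to be paired (residual correlations -0.14 to 0.54 in basal, 0.08 to 0.42 after HS). NEB m6A-IPs of Mettl3 RNAi, at 1.32 to 7.98 M counts, included the shallowest library of the set.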

Other observations

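In the library that stood apart, control basal replicate 8 of the Ythdc1 experiment, members whose counted bases lay mostly in the 5′UTR were lowest. Their median log2 ratio to the other replicates was -1.13 over 10 genes. It was -0.24 over 144 members, -0.36 over 1658 other eligible genes and -0.12 over all genes, so the members as a whole were not lower than the other eligible genes. Kr-h1 was at 0.2 CPM there against 13.2 and 13.4 in the other replicates, PRL-1 at 0.9 against 12.4 and 12.9, and sif at 4.9 against 124 and 122. In control basal replicate 2 of the Mettl3 experiment the same 10 genes had a median of -0.31. This description was made after the values were seen.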
